A study of Mus musculus with 18 samples.

Results

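The genes described here encode 9 proteins that act directly below the B cell antigen receptor (BCR): the Src-family kinases Lyn and Blk, the kinases Syk and Btk, the adaptors Blnk (SLP-65) and Pik3ap1 (BCAP), the effector enzymes Plcg2 and Prkcb, and the phosphatase Ptpn6 (SHP-1). They were taken as a fixed list of symbols, which was chosen with earlier results of these data known. All 9 were found among the 55487 gene entries of each count table and among the 15318 genes that passed the filter on low counts. RNA sequencing counts came from WEHI-231 cells, a mouse B cell lymphoma line with surface IgM, as 18 libraries in 9 groups of 2 independent experiments. The groups were parental cells and 2 TFEB KO clones, #A-59 and #B-20, and each line was left untreated (0 h) or stimulated with 10 µg/ml anti-IgM F(ab')2 for 6 or 18 h. Each clone is a single-cell derivative of Cas9-edited WEHI-231 cells, so a difference between 1 clone and parental cells cannot be told apart from a difference between clones. The duplicates describe repeat experiments on the same lines.

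Ligation of the BCR lets Lyn and related Src-family kinases phosphorylate the tyrosine motifs of the CD79 chains, to which Syk then binds. Syk phosphorylates the scaffold Blnk, which holds Btk and phospholipase C gamma 2 together, and the lipase then makes the second messengers that raise calcium and recruit protein kinase C beta. BCAP links the receptor to phosphoinositide 3-kinase, while SHP-1, recruited by inhibitory coreceptors, removes phosphates from the same proteins. Lyn acts on both sides, since it also phosphorylates the inhibitory coreceptors. The counts measure the messenger RNAs of these proteins, not their phosphorylation.

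Levels are given as CPM, read counts scaled to the library size and by the trimmed mean of M values (TMM). Differences are log2 fold changes with their standard error (SE), tested by quasi-likelihood in edgeR with Benjamini-Hochberg adjusted p-values over all 15318 genes. A gene passed at an adjusted p under 0.01, and was a differentially expressed gene (DEG) if the log2 fold change also exceeded 1 in size. Library totals were between 11223588 and 29655262 counts, and the lowest count of any of the 9 genes in any library was 1578, for Lyn. The 9 genes together took from 0.369% to 0.687% of all counts, lowest in a parental library at 6 h and highest in an #A-59 library at 18 h.

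Tfeb, the edited gene, was lower in every clone library than in every parental library. Parental cells had 79.2 and 82.8 CPM untreated, 84.3 and 83.6 after 6 h and 99.7 and 99.9 after 18 h. Clone #A-59 had 25.9 and 25.5, 30.4 and 29.8, and 35.4 and 40.5 CPM at the same times, and #B-20 had 34.2 and 39.1, 45.4 and 50.6, and 42.3 and 54.1 CPM. Transcripts of the edited gene were therefore still counted in both clones. All 9 genes of a B cell marker list exceeded 10 CPM in every library, and their sum ranged from 6713 to 14740 CPM. The markers of other cells summed to 50.1 to 101 CPM for 7 T cell genes (of which only Cd8b1 exceeded 10 CPM in every library) and 2.41 to 7.73 for 4 plasma cell genes. The sum of 8 myeloid genes, led by Itgam, was 1.92 to 9.01 CPM in parental cells, 7.89 to 27.9 in clone #A-59 and 2.81 to 7.05 in clone #B-20. The sum of 6 erythroid and stromal genes, led by Pecam1, was 20.5 to 59.8 CPM in parental cells, 53.9 to 161 in #A-59 and 36.1 to 107 in #B-20. The part of these sums in the differences below was not tested.

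The 9 genes lie on 8 chromosomes (GRCm38): Lyn (ENSMUSG00000042228) at chr4:3678068-3791612, Blk (ENSMUSG00000014453) at chr14:63372837-63417187, Syk (ENSMUSG00000021457) at chr13:52582610-52648792 and Btk (ENSMUSG00000031264) at chrX:134542334-134583628. Blnk (ENSMUSG00000061132) at chr19:40928927-40994221 and Pik3ap1 (ENSMUSG00000025017) at chr19:41272541-41385102 both lie on chromosome 19. Plcg2 (ENSMUSG00000034330) lies at chr8:117498275-117635142, Ptpn6 (ENSMUSG00000004266) at chr6:124720707-124738709 and Prkcb (ENSMUSG00000052889) at chr7:122289104-122634402. Ptpn6 shares 6.58% of its exon bases with another annotated gene, so with libraries that do not keep the strand a part of its reads could belong to that gene. The other 8 genes share no exon bases.

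TFEB belongs to a family of basic helix-loop-helix factors that bind the letters CACGTG, typically as part of TCACGTG in their lysosomal target genes. Both strands of the RefSeq promoter windows (GRCm38.p6; 250 bases before to 50 after the start site) were therefore searched for CACGTG and for the related TCANGTG, which overlaps TCACGTG. Sequences were at hand for 7 of the 9 genes, all but Lyn and Blk. CACGTG was found in 2 of the 7 genes, Plcg2 and Pik3ap1, against 8.09% of 27025 genes with such a window, and in Plcg2 it was part of TCACGTG (4.29% of genes). Blnk held TCANGTG at 2 places without CACGTG, and TCANGTG was found in 16.1% of all genes. Syk, Btk, Ptpn6 and Prkcb held neither, which says only that these letters are not in those windows. A match of letters does not show that TFEB binds there, and binding was not tested. The clone differences given after the sequences are a description and do not test it either. The 60 bases around each match upstream of the start site are printed 5′ to 3′ on the gene's strand, with the matched letters in capitals.
Plcg2, chr8:117498215-117498274, plus strand: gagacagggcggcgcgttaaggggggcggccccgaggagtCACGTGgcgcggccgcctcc
Pik3ap1, chr19:41385242-41385301, minus strand: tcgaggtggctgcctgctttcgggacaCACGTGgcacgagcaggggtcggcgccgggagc
Blnk, distal, chr19:40994349-40994408, minus strand: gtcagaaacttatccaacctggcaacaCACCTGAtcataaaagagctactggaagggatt
Blnk, proximal, chr19:40994240-40994299, minus strand: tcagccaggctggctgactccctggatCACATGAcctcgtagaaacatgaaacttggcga
The match begins at position -20 from the start site in Plcg2, at -172 in Pik3ap1, and at -160 and -51 in Blnk. None of these 3 genes passed the test in untreated clones against untreated parental cells: the log2 differences of #A-59 and #B-20 were 0.03 ± 0.08 (SE) and -0.18 ± 0.08 for Plcg2, 0.24 ± 0.08 and 0.29 ± 0.08 for Pik3ap1, and 0.16 ± 0.07 and -0.03 ± 0.07 for Blnk. The 2 genes whose untreated levels did differ in a clone, Lyn and Blk, are those without a promoter sequence here. After 6 h of anti-IgM Plcg2 passed in #A-59, by 0.40 ± 0.08 (adjusted p = 0.000687), a call lost in a fit of only the libraries compared. In #B-20 its 6 h difference was 0.09 ± 0.08 and did not pass (adjusted p = 0.465). Plcg2 passed in neither clone at 18 h, and Pik3ap1 and Blnk passed in neither clone at 6 or 18 h.

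In untreated parental cells each of the 9 genes was compared with its relatives per kilobase of the canonical transcript, the scale on which different genes can be set side by side. Among the Src-family kinases Blk led with 166 ± 10.9 CPM per kb (SD, n = 2), ahead of Lyn with 34.2 ± 5.92 and Lck with 33.0 ± 3.25. Lyn and Lck did not differ beyond the spread between their libraries. Fgr stood at 5.10 ± 0.0361 and Src at 0.473 ± 0.0398 CPM per kb, while Fyn and Yes1 had at most 1 count in any library. Syk stood at 164 ± 12.8 and its T cell relative Zap70 at 11.2 ± 0.22, and Btk stood at 157 ± 1.25 against 11.9 ± 0.706 for Tec and 1.20 ± 0.0325 for Bmx. Plcg2 exceeded Plcg1 with 209 ± 8.97 against 4.69 ± 0.168 CPM per kb, and Ptpn6 exceeded Ptpn11 (SHP-2) with 412 ± 29.3 against 60.8 ± 0.508. Lcp2 (SLP-76), the T cell relative of Blnk, had at most 5 counts in any library. Among the protein kinase C genes Prkcb stood at 329 ± 26.4 and Prkcd at 277 ± 8.63 CPM per kb, and Prkca, Prkce and Prkcz were below 10 CPM per kb. Lengths of all merged exons in place of the canonical transcript gave 89.7 CPM per kb for Prkcb and 68.1 for Prkcd. They turned the order of some pairs, among them Blnk (102 to 31.1) and Pik3ap1 (66.0 to 51.7), and Syk (164 to 96.1) and Btk (157 to 127).

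**Figure D1:**
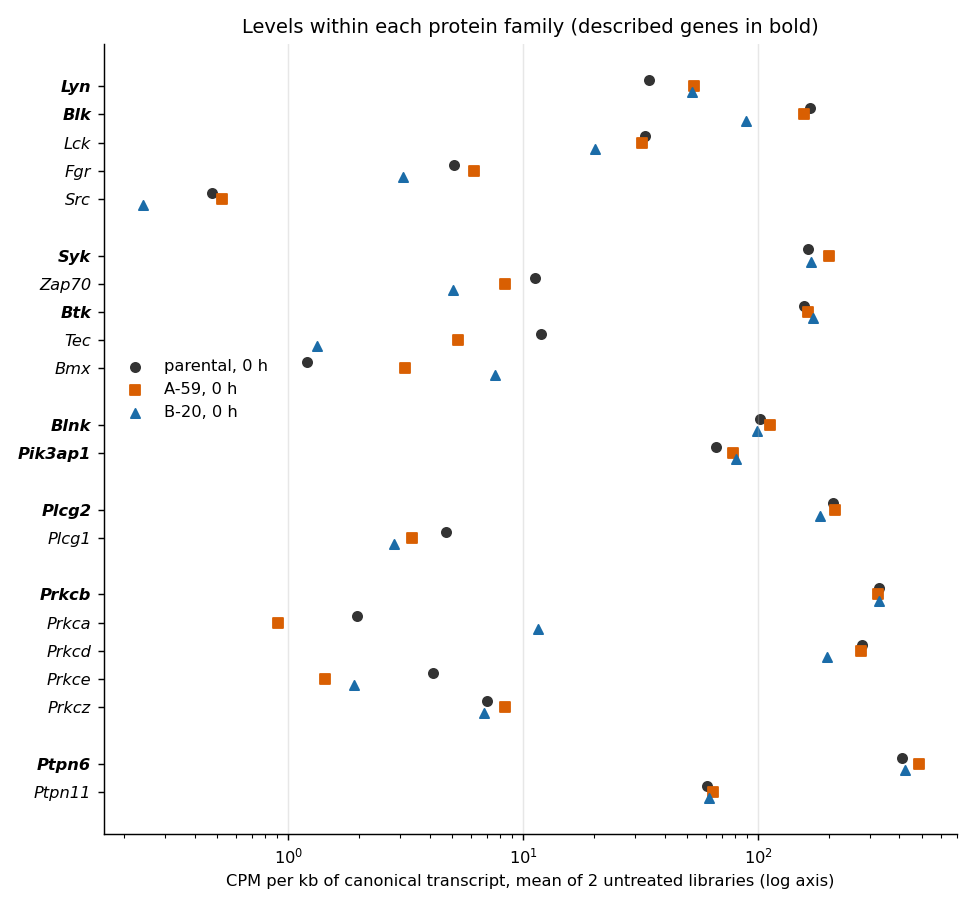
Mean level of the described genes (bold) and their relatives in the untreated groups, in CPM per kb of canonical transcript on a log axis, with circles for parental cells, squares for #A-59 and triangles for #B-20. Each described gene except Lyn stood at 66.0 CPM per kb or more in all 3 genotypes, Blk was lower in #B-20, and Tec and Prkca moved by more than any of the 9 genes between genotypes.

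The course over time was shared by most of the 9 genes: levels were lower at 6 h than at 0 h and higher at 18 h than at 6 h. In parental cells Lyn, Blk, Syk, Plcg2, Ptpn6 and Prkcb, 6 of the 9 genes, fell between 0 and 6 h, and Btk, Blnk and Pik3ap1 did not pass. The count was 2 without replicate 1 of the 6 h group, 3 without replicate 2 of the 0 h group and 4 without replicate 2 of the 6 h group. In bulk RNA a lower level in every cell and a larger share of cells with little of a transcript cannot be told apart. Across the list the median log2 change of the 9 was -0.46 against 0.01 over all tested genes. Of all tested genes 7.34% passed in this comparison and 4.24% were lower. Of the 2642 genes that reached 1000 counts in each of the 18 libraries, as the 9 genes did (a set chosen after seeing the data), 7.72% were lower. In #A-59 3 of the 9 fell, Syk, Pik3ap1 and Prkcb (6.14% of all genes passed, 3.69% lower), of which 0 passed in the edgeR fit of only the libraries compared, and in #B-20 2 fell, Blk and Syk (1.29% passed, 0.875% lower). The median changes of the 9 at 6 h were -0.27 in #A-59 and -0.32 in #B-20.

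Between 6 and 18 h, 8 of the 9 genes rose in each genotype. Prkcb in parental cells and Btk in both clones were the exceptions that did not pass. The background was high in these comparisons: 38.3% of all tested genes passed in parental cells (19.4% higher), 31.9% in #A-59 (14.9% higher) and 22.6% in #B-20 (11.5% higher). Of the genes with 1000 or more counts throughout, 31.2%, 27.7% and 19.8% were higher. Medians of the 9 genes were 0.67, 0.54 and 0.56 on the log2 scale, against 0.03, 0.01 and -0.01 over all genes.

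Against 0 h, the 18 h libraries of parental cells were higher for 5 genes (Lyn, Btk, Blnk, Plcg2 and Pik3ap1) and lower for Syk and Prkcb, beside 32.6% of all tested genes passing and 16.4% higher. In #A-59 5 genes were higher, again Lyn, Btk, Blnk, Plcg2 and Pik3ap1 (31.8% of all genes passed, 14.7% higher), and in #B-20 4, Lyn, Blnk, Plcg2 and Ptpn6 (22.8% passed, 11.4% higher). With any 1 of the 4 parental libraries left out, the parental count at 18 h against 0 h was 2 to 4 genes instead of 7, and Btk and Plcg2 did not pass in any of these 4 fits. Because the comparisons of a genotype share libraries, the falls at 6 h and the rises from 6 h are not independent of each other.

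**Figure D2:**
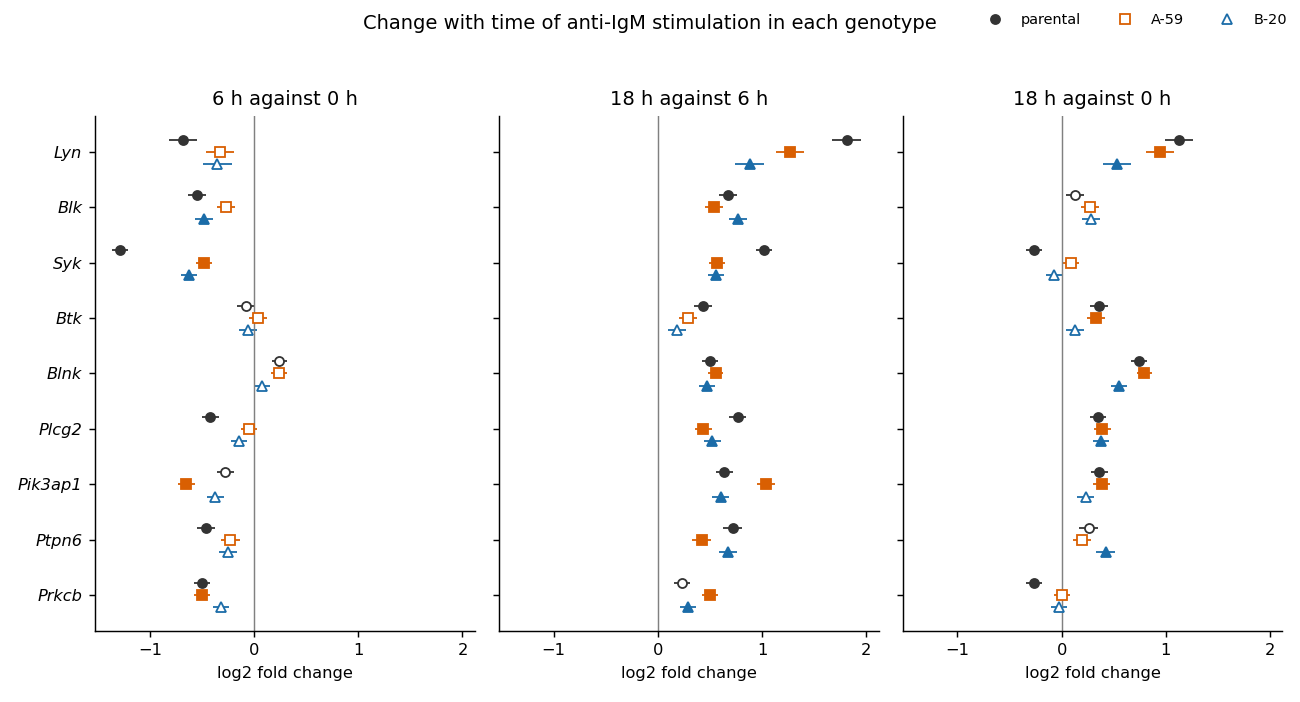
Log2 fold change ± SE of the 9 genes at 6 h against 0 h, 18 h against 6 h and 18 h against 0 h, with circles for parental cells, squares for #A-59 and triangles for #B-20, and filled symbols for an adjusted p under 0.01. In parental cells Syk had the largest fall at 6 h, and Lyn the largest rise from 6 to 18 h.

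In the clones, 2 genes of the list were higher than in parental cells in both lines, Lyn untreated and at 6 h and Syk at 6 h, and 1 gene, Blk, was lower at all times in #B-20 alone. Clone #A-59 differed from parental cells for Lyn at 0 h (9.56% of all genes passed, 5.09% higher), for Lyn, Syk, Plcg2 and Ptpn6 at 6 h (22.7% passed, 11.4% higher) and for Syk at 18 h (10.4% passed, 4.75% higher), and each of these differences was upward. Clone #B-20 differed for Lyn (higher) and Blk (lower) at 0 h (background 10.7%), for Lyn and Syk (higher) and Blk (lower) at 6 h (14.2%), and for Blk (lower) at 18 h (14.2%). Btk, Blnk, Pik3ap1 and Prkcb passed in none of the 6 clone comparisons. Their differences lay between -0.22 and 0.29 on the log2 scale, and unadjusted p-values under 0.05 were counted for 4 to 7 of the 9 genes per comparison. At 0, 6 and 18 h DESeq2 called 2, 4 and 2 of the 9 genes for #A-59, and 3, 3 and 1 for #B-20.

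**Figure D3:**
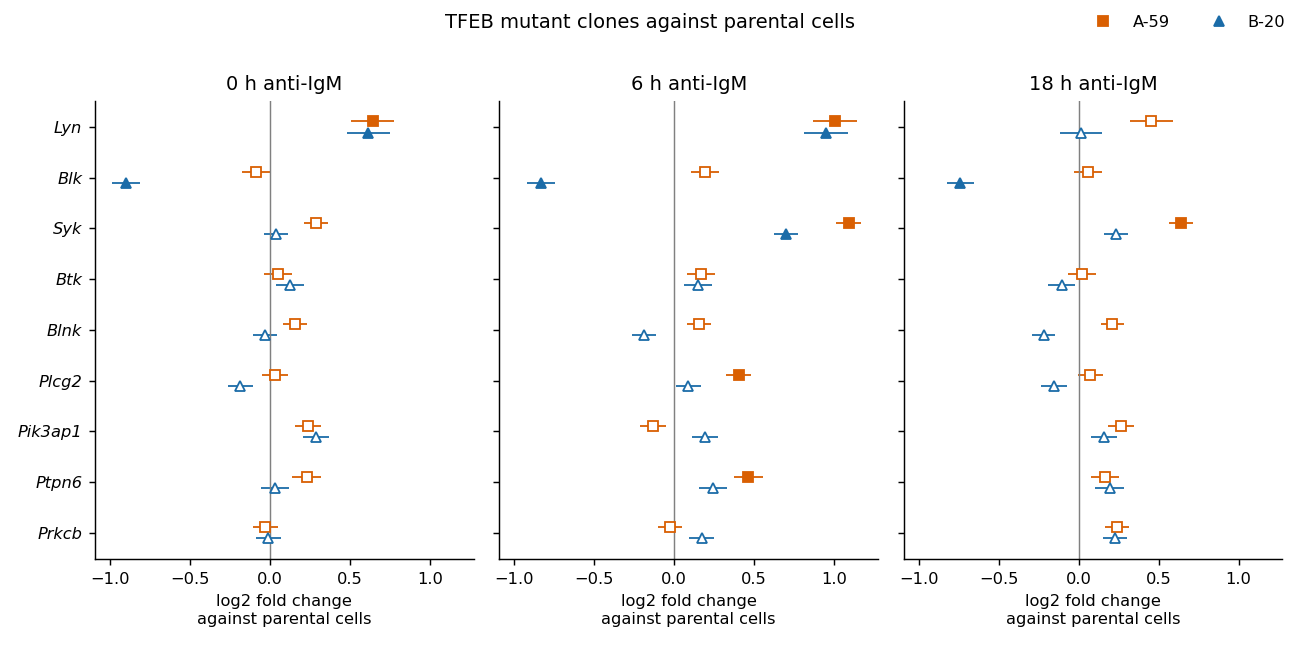
Log2 fold change ± SE of #A-59 (squares) and #B-20 (triangles) against parental cells at 0, 6 and 18 h for the 9 genes, with filled symbols for an adjusted p under 0.01. Lyn lay to the right in both clones at 0 and 6 h, Syk at 6 h, and Blk lay to the left in #B-20 at all times.

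Lyn had the widest range of the 9 genes, with 4.82-fold between the lowest and the highest group mean. In parental cells its 2 libraries held 106 and 135 CPM untreated, 68.9 and 80.4 after 6 h, and 266 and 259 after 18 h. In #A-59 it stood at 167 and 208, 138 and 162, and 368 and 352 CPM at the same times. In #B-20 the values were 167 and 201, 134 and 155, and 252 and 279 CPM. Every clone library was above every parental library of the same time at 0 and 6 h, and at 18 h the #B-20 libraries spanned the parental ones. The order of the 9 groups ran from parental 6 h, parental 0 h and the 2 clones at 6 h to the untreated clones, the 18 h groups of parental cells and #B-20 and, highest, #A-59 at 18 h. The libraries of neighbouring groups overlapped between parental 0 h and #B-20 6 h, between the clones at 6 h, between the clones at 0 h, and between parental 18 h and #B-20 18 h.

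The log2 difference of Lyn between clone and parental cells was 0.64 ± 0.13 (adjusted p = 0.00217) in #A-59 and 0.61 ± 0.14 (adjusted p = 0.00315) in #B-20 when untreated. At 6 h Lyn was 2.01-fold higher in #A-59 (adjusted p = 1.58e-05) and 1.93-fold in #B-20 (adjusted p = 3.94e-05), which made it a DEG in #A-59 (4.28% of all genes were DEGs that were higher). At 18 h the log2 difference was 0.46 ± 0.13 (adjusted p = 0.0234) and 0.02 ± 0.13 (adjusted p = 0.955). Lyn also had the widest gap between replicates of the 9 genes, up to 0.36 on the log2 scale. Without replicate 1 of untreated parental cells, or without replicate 2 of the untreated clone concerned, the difference at 0 h did not pass, at values down to 0.48 in #A-59 and 0.45 in #B-20. For Lyn replicate 2 was above replicate 1 in all 6 groups at 0 and 6 h, and with the replicate number as a block the differences at 0 h were 0.64 (adjusted p = 7.02e-05) and 0.62 (adjusted p = 0.000118).

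Lyn fell in parental cells after 6 h of anti-IgM by 0.69 ± 0.14 on the log2 scale (fold 1.61, adjusted p = 0.00189), a call that was lost without replicate 1 of the 6 h group or replicate 2 of the 0 h group. From 6 to 18 h Lyn rose 3.52-fold in parental cells and 2.40-fold and 1.84-fold in the clones #A-59 and #B-20, and at 18 h it was 2.19-fold, 1.92-fold and 1.44-fold above the untreated level. The 2.19-fold rise was a DEG (5.56% of all genes were DEGs that rose), as were the rises from 6 h in parental cells (7.54%) and #A-59 (4.43%). All of these rises passed, and the last of them (adjusted p = 0.0049) did not when any of 3 of the 4 #B-20 libraries was left out. The difference between the #B-20 and the parental response at 18 h was -0.60 ± 0.19 on the log2 scale and did not pass (adjusted p = 0.155). The rises from 6 to 18 h were not tested against each other.

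Blk, the other Src-family kinase with a high level in these cells, was set apart by clone. Parental cells had 385 and 422 CPM untreated, 258 and 294 after 6 h, and 432 and 448 after 18 h. Clone #A-59 had 383 and 378, 338 and 293, and 467 and 450 CPM. Clone #B-20 had 215 and 218, 151 and 158, and 267 and 260 CPM. Each #B-20 library was below each parental and #A-59 library of the same time, while the #A-59 and parental libraries overlapped at 6 h and lay close to each other at 0 and 18 h. The log2 difference of #B-20 from parental cells was -0.90 ± 0.09 without stimulation, -0.83 ± 0.09 after 6 h and -0.74 ± 0.09 after 18 h, with adjusted p-values of 3.9e-07, 7.85e-07 and 3.72e-06. The corresponding values of #A-59 were -0.09, 0.19 and 0.06, with adjusted p-values from 0.096 to 0.718.

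A direct comparison of the clones gave -0.81, -1.03 and -0.80 for Blk in #B-20 against #A-59 at 0, 6 and 18 h, with adjusted p-values of 2.24e-06, 1.03e-07 and 2.01e-06 (8.41%, 18.7% and 16.2% of all genes passed). At 6 h Blk was a DEG, as were 3.63% of all genes in the lower direction. Over the 8 alternatives other than leaving out a library, these values lay between -0.845 and -0.697, -1.068 and -0.858, and -0.81 and -0.753. Against parental cells the #B-20 values lay between -0.917 and -0.77, -0.865 and -0.722, and -0.744 and -0.66 at the same times. Blk passed in every alternative fit of these comparisons and without any 1 of the libraries. The time course of Blk did not pass as different from that of parental cells: the #B-20 response differed by 0.07 ± 0.12 at 6 h and 0.16 ± 0.12 at 18 h. Blk fell at 6 h by 0.55 ± 0.09 in parental cells (adjusted p = 0.00022) and by 0.48 ± 0.09 in #B-20 (adjusted p = 0.00384). The #B-20 fall was lost without any 1 of its 4 libraries and the parental fall without replicate 1 of the 6 h group. In #A-59 the change was -0.27 ± 0.09 and did not pass (adjusted p = 0.0449).

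Syk, the kinase that binds the phosphorylated receptor, had the largest fall of the 9 genes at 6 h in parental cells and #B-20, whereas in #A-59 Pik3ap1 and Prkcb changed by more. Parental cells had 909 and 1015 CPM untreated, 398 and 392 after 6 h, and 794 and 807 after 18 h. Clone #A-59 had 1187 and 1161, 831 and 849, and 1263 and 1233 CPM. Clone #B-20 had 954 and 1022, 638 and 642, and 901 and 980 CPM. The 2 parental libraries at 6 h were the lowest of all 18, below every clone library of any time. In the order of the groups, #B-20 at 18 h, parental cells at 0 h and #B-20 at 0 h did not differ beyond their spread.

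In parental cells Syk fell 2.44-fold within 6 h (log2 fold change -1.28 ± 0.08, adjusted p = 3.11e-09) and was the only DEG of the 9 genes at that time (1.46% of all genes were DEGs that fell). The fall was 1.40-fold in #A-59 (-0.48 ± 0.08, adjusted p = 0.000376) and 1.54-fold in #B-20 (-0.63 ± 0.08, adjusted p = 7.47e-05). The test of the difference between responses gave 0.80 ± 0.11 on the log2 scale for #A-59 (adjusted p = 0.000695, background 0.646%) and 0.66 ± 0.11 for #B-20 (adjusted p = 0.00516, background 0.183%). Syk was the only 1 of the 9 genes to pass in either, and both tests use the same parental libraries. In the leave-one-out fits the #B-20 value ranged from 0.57 to 0.73 and did not pass without any 1 of its 8 libraries, while it passed in all 8 other alternatives. The #A-59 value passed in each of the 8 leave-one-out fits and was lost with only the libraries compared (adjusted p = 0.0289).

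As levels, Syk was above parental cells at 6 h by 1.09 ± 0.08 in #A-59 (2.13-fold, adjusted p = 3.61e-09) and by 0.70 ± 0.08 in #B-20 (1.62-fold, adjusted p = 1.29e-06). Untreated, the differences were 0.29 ± 0.08 (adjusted p = 0.0126) and 0.04 ± 0.08 (adjusted p = 0.784). At 18 h #A-59 was still higher, by 0.64 ± 0.08 (adjusted p = 5.37e-06), and #B-20 differed by 0.23 ± 0.08 (adjusted p = 0.0319). Parental Syk at 18 h was 0.27 below its untreated level on the log2 scale (adjusted p = 0.00801), a call kept in 1 of the 4 fits that left out a library. In #A-59 and #B-20 the 18 h change was 0.09 ± 0.08 and -0.07 ± 0.08.

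**Figure D4:**
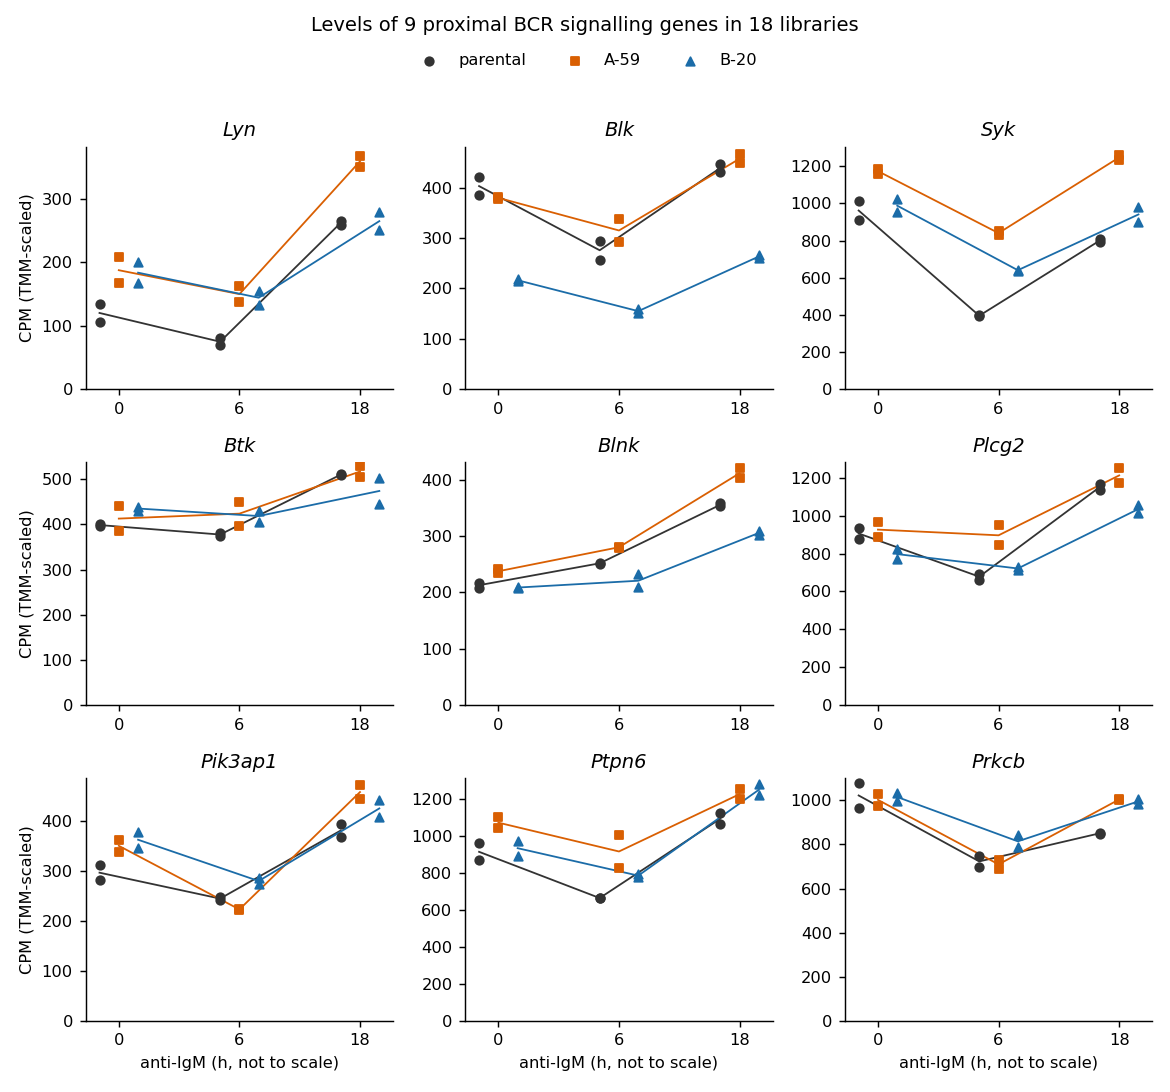
Level of each of the 9 genes in every library (CPM on axes that start at 0) at 0, 6 and 18 h of anti-IgM, with circles for parental cells, squares for #A-59, triangles for #B-20 and lines through the means of the 2 libraries. Syk at 6 h separated parental cells from both clones, Blk separated #B-20 from the other lines, and Btk stayed within a 1.37-fold range of group means.

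Btk, which activates phospholipase C gamma 2 and is mutated in X-linked agammaglobulinaemia, moved least. Group means lay between 378 and 517 CPM, a 1.37-fold range. Parental cells had 396 and 401 CPM untreated, 374 and 381 after 6 h, and 510 and 511 after 18 h. The untreated and 6 h libraries of the clones lay between 386 and 450 CPM, and their 18 h libraries between 446 and 530 CPM. Btk rose by 0.36 ± 0.09 on the log2 scale at 18 h in parental cells (adjusted p = 0.00247) and by 0.33 ± 0.09 in #A-59 (adjusted p = 0.00494), and changed by 0.12 ± 0.09 in #B-20 (adjusted p = 0.289). The #A-59 rise was kept in only 1 of its 4 leave-one-out fits, the parental rise in none, and both were lost without the filter on low counts. Tec, the related kinase, was lower in the clones than in parental cells: untreated parental cells had 32.2 ± 1.91 CPM (SD, n = 2), #A-59 14.3 ± 3.01 and #B-20 3.57 ± 1.01, with log2 differences of -1.16 ± 0.23 (adjusted p = 0.00196) and -3.18 ± 0.28 (adjusted p = 4.97e-07).

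Blnk, the scaffold for Btk and phospholipase C gamma 2, was the 1 gene of the 9 whose 6 h libraries all lay above the untreated ones in parental cells. It had 217 and 209 CPM untreated, 253 and 251 after 6 h, and 359 and 353 after 18 h in parental cells. In #A-59 it had 241 and 234, 280 and 281, and 421 and 404 CPM, and in #B-20 208 and 210, 209 and 233, and 309 and 303 CPM. The 18 h libraries were above all earlier libraries of any genotype. Within 18 h Blnk rose by 0.74 ± 0.07 on the log2 scale in the parental line and 0.79 ± 0.07 and 0.55 ± 0.07 in the clones, with adjusted p-values of 2.78e-07, 1.58e-07 and 1.99e-05, and these 3 calls held without any 1 library. Neither clone passed against parental cells, but #B-20 was below #A-59 by 0.34 after 6 h (adjusted p = 0.00173) and by 0.43 after 18 h (adjusted p = 0.000271). The 6 h difference was lost without replicate 1 of #B-20 at 6 h and with only the libraries compared.

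Pik3ap1, the adaptor for phosphoinositide 3-kinase, had 281 and 311 CPM in untreated parental cells, 242 and 246 after 6 h, and 393 and 367 after 18 h. In #A-59 it had 337 and 362, 221 and 224, and 472 and 442 CPM. In #B-20 it had 346 and 378, 274 and 285, and 408 and 441 CPM. The 6 h libraries of each genotype were below its other libraries. The fall at 6 h passed only in #A-59, by 0.65 ± 0.08 on the log2 scale (adjusted p = 4.95e-05, and 0.0424 with only the libraries compared), and was -0.28 ± 0.08 in parental cells (adjusted p = 0.0308) and -0.37 ± 0.08 in #B-20 (adjusted p = 0.0153). The difference between the #A-59 and the parental response was -0.37 ± 0.12 and did not pass (adjusted p = 0.119). The rise from 6 to 18 h was 2.05-fold in #A-59, a DEG, and 1.56-fold and 1.52-fold in parental cells and #B-20. At 6 h #B-20 was above #A-59 by 0.33 ± 0.08 (adjusted p = 0.00564), the opposite direction to Blk, Syk, Blnk and Plcg2, and the call was lost in 3 of 4 leave-one-out fits.

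Plcg2 and Ptpn6, the lipase and the phosphatase, followed courses like each other in parental cells. Plcg2 had 879 and 934 CPM untreated, 662 and 693 after 6 h, and 1137 and 1167 after 18 h. Ptpn6 had 868 and 960 CPM, then 664 and 663, and 1122 and 1064. Their falls at 6 h were 0.42 ± 0.08 (adjusted p = 0.00128) and 0.46 ± 0.09 (adjusted p = 0.00149) on the log2 scale, and each was lost in the same number of fits, 3 of 4, when a parental library was left out. In #A-59 Plcg2 had 964 and 889, 950 and 843, and 1252 and 1174 CPM, and Ptpn6 had 1101 and 1042, 1003 and 828, and 1253 and 1198. In #B-20 Plcg2 had 771 and 823, 715 and 727, and 1055 and 1016 CPM, and Ptpn6 had 893 and 974, 776 and 794, and 1219 and 1280. Their 6 h changes in the clones lay between -0.05 and -0.25 on the log2 scale and did not pass.

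At 6 h #A-59 was above parental cells by 0.40 ± 0.08 for Plcg2 (adjusted p = 0.000687) and by 0.46 ± 0.09 for Ptpn6 (adjusted p = 0.000535), and both calls were lost with only the libraries compared, that of Plcg2 also without replicate 1 of parental cells at 6 h. The #B-20 values were 0.09 ± 0.08 (adjusted p = 0.465) and 0.24 ± 0.09 (adjusted p = 0.0579). Responses at 6 h did not pass as different from the parental response for either gene, at adjusted p-values from 0.113 to 0.846. From 6 to 18 h Plcg2 rose 1.70-fold in parental cells and 1.35-fold and 1.44-fold in the clones, and Ptpn6 1.65-fold, 1.34-fold and 1.59-fold, all of which passed. At 6 h Plcg2 was 0.31 lower in #B-20 than in #A-59 (adjusted p = 0.00597), and Syk 0.39 lower (adjusted p = 0.000752). Log2 differences between these groups fell with the GC content of the genes (Spearman's rho -0.452 across 15191 genes, which are not independent replicates). With a correction for GC the differences shrank to -0.12 for Plcg2 and -0.20 for Syk and no longer passed. Between the clones rho was -0.403 at 0 h and -0.064 at 18 h. For #B-20 against parental cells it was -0.352, -0.274 and -0.063 at 0, 6 and 18 h. For the 6 h responses against the parental one it was 0.234 in #A-59 and 0.084 in #B-20.

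Prkcb, the protein kinase C that links the second messengers to NF-κB activation in B cells, fell at 6 h and did not rise above its untreated level. Parental cells had 964 and 1080 CPM untreated, 698 and 748 after 6 h, and 852 and 850 after 18 h. In #A-59 it had 976 and 1028, 689 and 730, and 1003 and 1005 CPM, and in #B-20 996 and 1034, 842 and 786, and 983 and 1008 CPM. The fall was 0.50 ± 0.08 on the log2 scale in parental cells (adjusted p = 0.000183) and in #A-59 (adjusted p = 0.000341), and -0.32 ± 0.08 in #B-20 did not pass (adjusted p = 0.0294). At 18 h parental Prkcb was still 0.27 below 0 h (adjusted p = 0.00922, lost in 3 of 4 leave-one-out fits and with a minimum of 10 counts in each library), and the changes in the clones were 0.00 and -0.03. At 18 h the clones were above parental cells by 0.24 ± 0.08 and 0.23 ± 0.08, neither of which passed (adjusted p = 0.0392 and 0.0401).

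The 18 h responses of the clones did not pass as different from the parental response for any of the 9 genes in edgeR or in DESeq2, with 2 of 9 unadjusted p-values under 0.05 in each clone. Of all tested genes 0.0392% passed for #A-59 and 0.222% for #B-20.

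The rest of the pathway was read through lists of 70 other genes, of which 60 passed the filter on low counts. Against parental cells 15, 32 and 17 of the 60 passed in #A-59 at 0, 6 and 18 h, of which 12, 24 and 10 were higher, beside 9.56%, 22.7% and 10.4% of all tested genes passing. In #B-20 the counts were 30, 28 and 22, of which 13, 13 and 5 were higher, beside 10.7%, 14.2% and 14.2%. The #A-59 count at 0 h was 8 without replicate 1 of untreated parental cells, and at 18 h 11 without replicate 1 of #A-59 or replicate 2 of parental cells. Without the latter the #B-20 count at 18 h was 14. In parental cells 18 of the 60 fell and 4 rose at 6 h, and 5 fell and 3 rose in #A-59 and 3 fell in #B-20 (7.34%, 6.14% and 1.29% of all genes passed). The 22 parental calls became 9 without replicate 2 of the 0 h group, and 10 and 12 without replicates 1 and 2 of the 6 h group. The 8 calls of #A-59 became 4 without replicate 2 at 0 h and 13 without replicate 2 at 6 h, and the 3 calls of #B-20 became 1 without replicate 2 at 0 h or replicate 1 at 6 h. The test of the response at 6 h passed for 4 of the 60 genes in #A-59 and for 1 gene in #B-20. Of all tested genes 0.646% and 0.183% passed in these tests. DESeq2 called 10 and 3 of the 60, and edgeR gave 18 and 19 unadjusted p-values under 0.05. At 18 h 37 of the 60 were above 0 h in parental cells, and 39 and 34 in the clones (16.4%, 14.7% and 11.4% of all genes were higher). All calls at 18 h fell from 41 to 25 in #A-59 without replicate 1 at 18 h and from 35 to 22 in #B-20 without replicate 1 at 0 h. The medians of the 60 genes at 6 h were -0.10, -0.02 and -0.04 on the log2 scale, all nearer to 0 than those of the 9 genes. The lists differed, however. The 13 tested genes of the list of other effector enzymes had medians of -0.46, -0.29 and -0.24, close to those of the 9 genes. The receptor chains and coreceptors had -0.365, -0.04 and -0.10, and the medians of the remaining lists lay between -0.154 and 0.214.

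Among the receptor chains and coreceptors 7 of 10 passed at 6 h in parental cells, 6 of them lower (7.34% of all genes passed). In #A-59 1 of the 10 passed (6.14%), and in #B-20 edgeR called 0 and DESeq2 1 (1.29%), with 3 and 5 unadjusted p-values under 0.05. The response at 6 h passed as different from the parental one for 2 of the 10 genes in #A-59 (0.646% of all genes), and DESeq2 called 4. For #B-20 it passed for 0 of 10 in edgeR and in DESeq2 (0.183% of all genes), with 6 unadjusted p-values under 0.05. Siglecg, an inhibitory lectin that recruits SHP-1, had 20.4 ± 0.381 CPM in untreated parental cells and 54.7 ± 1.02 and 49.6 ± 3.73 CPM in #A-59 and #B-20, a log2 difference of 1.42 ± 0.09 (adjusted p = 6.88e-10) and 1.28 ± 0.09 (adjusted p = 3.88e-09). Lck, a further Src-family kinase, was below parental cells in #B-20 by 0.70, 0.85 and 0.61 at 0, 6 and 18 h, with adjusted p-values from 3.31e-06 to 0.000111, and did not pass in #A-59.

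Several of these genes moved in opposite directions in the 2 clones or differed in 1 of them. Prkca, a relative of Prkcb, had 17.1 ± 1.41 CPM in untreated parental cells, against 7.92 ± 0.0834 CPM in #A-59 but 101 ± 2.23 CPM in #B-20, and Prkcb itself had nearly the same level in all 3. The adaptor Sh3bp2 was higher by 1.75 ± 0.14 in untreated #A-59 (adjusted p = 2.72e-08) and differed by 0.39 ± 0.15 in #B-20 (adjusted p = 0.0876). Ubash3b (STS-1), a phosphatase that acts on Syk and Zap70, rose by 1.06 ± 0.11 at 6 h in parental cells (adjusted p = 1.54e-06), from 22.1 ± 1.53 to 46.2 ± 1.62 CPM, and changed by 0.25 ± 0.11 and 0.22 ± 0.12 in #A-59 and #B-20, neither of which passed. The response at 6 h differed from the parental one by -0.82 ± 0.15 in #A-59 (adjusted p = 0.00758) and by -0.85 ± 0.16 in #B-20, which did not pass (adjusted p = 0.0161). Untreated Ubash3b was already lower in #B-20 by 1.57-fold (adjusted p = 0.000451), and in #A-59 the log2 difference was -0.27 ± 0.11 (adjusted p = 0.119). At 6 h it was lower than in parental cells by 2.12-fold for #A-59 and 2.83-fold for #B-20 (adjusted p = 3.26e-07 and 7.2e-09), the opposite direction to Syk.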

How the data were processed

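RNA of 18 WEHI-231 libraries was sequenced from non-stranded TruSeq mRNA libraries, single-end. The authors used bcl2fastq (2.20.0.422 in the submitters' processing notes; the study's methods give another version), STAR (2.5) on GRCm38 and featureCounts (1.5.0-p1). The deposited values are raw whole-number counts per Ensembl gene, and no entry names anything but a gene. Multi-mapping and strand options of the counting are not given in the sources used here.

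Symbols came from GENCODE vM39 (51731 of 55487 entries matched), and coordinates and promoters from RefSeq. Counts were fitted in edgeR 4.0.16 (R 4.3.3) with TMM scaling, filterByExpr (15318 genes kept), 9 group means and robust quasi-likelihood tests over all 18 libraries, in 22 comparisons, and p-values were adjusted within each. The scripts were tested on simulated data. GC content was known for 99.2% of tested genes. Library totals had a median of 19846544. The members and gene lists were chosen with earlier results of these data known. Named were the 9 genes, Tfeb, and of each pathway list at most 4 DEGs with the largest changes. Of these, 1 is not reported here, and those described are a part chosen after their values were seen. Alternatives were DESeq2 (1.42.0), its size factors, other filters, fits of only the groups compared, a replicate term, a GC correction and leaving out each library. Replicates differed beyond counting noise (chi-square per degree of freedom 3.34 to 52).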

Additional observations from a re-analysis of the deposited data

Results flagged for a closer look

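Differences between groups under the same contrast that passed their own test are listed here with their values, without an explanation.

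The Syk response at 6 h of anti-IgM differed from that of parental cells by 0.80 on the log2 scale in #A-59 (adjusted p = 0.000695) and by 0.66 in #B-20 (adjusted p = 0.00516). Both clones were compared with the same 4 parental libraries, in which Syk had its lowest values at 6 h. The fits in which each of these calls was lost are given with the Syk result above.

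The remaining flags were differences between the clones themselves, given for #B-20 against #A-59. Blk differed by -0.81 on the log2 scale when untreated, -1.03 after 6 h and -0.80 after 18 h, with adjusted p-values of 2.24e-06, 1.03e-07 and 2.01e-06. Syk differed by -0.39 after 6 h (adjusted p = 0.000752) and -0.41 after 18 h (adjusted p = 0.000569). Blnk differed by -0.34 after 6 h (adjusted p = 0.00173) and -0.43 after 18 h (adjusted p = 0.000271). At 6 h Plcg2 differed by -0.31 (adjusted p = 0.00597) and Pik3ap1 by 0.33 (adjusted p = 0.00564). The 6 h differences of Syk, Blnk, Plcg2 and Pik3ap1 were lost with only the libraries compared, and those of Syk and Plcg2 also with the GC correction. With 1 library left out, the 18 h difference of Syk ranged from -0.475 to -0.349. The 6 h difference of Plcg2 then ranged from -0.406 to -0.228. All p-values come from edgeR and were adjusted over all tested genes. Outlying libraries were not searched for within the groups of 2.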

How the results depend on the processing

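Of 74 calls of the 9 genes over the 22 comparisons, none reversed. With DESeq2 size factors, DESeq2 and the replicate block 74 were kept, with a minimum of 10 counts in every library 73, with the replicate block and GC correction 72, with the GC correction 71, without the filter 69 and with only the libraries compared 58. Genes passing among the 9 changed as follows. For #A-59 against parental cells at 0 h (1), DESeq2, the replicate block and the GC correction gave 2 each and block and GC correction together 3. At 6 h (4) only the libraries compared gave 2. At 18 h (1) no filter, DESeq2 and the replicate block gave 2 each, block and GC correction 4 and only the libraries compared 5. For #B-20 against parental cells, block and GC correction gave 7 at 6 h (3) and 5 at 18 h (1), where the GC correction gave 3. At 18 h against 0 h in parental cells (7) no filter gave 4. At 6 h against 0 h, #A-59 (3) had 5 with GC correction, 6 with block and GC correction and 0 with only the libraries compared, where the other pathway genes (8) also had 0. #B-20 (2) had 4 with DESeq2, the GC correction and block and GC correction. From 6 to 18 h, no filter left 1 DEG of 2 in parental cells and only the libraries compared left 4 of 8 in #A-59. That setting left 0 for the #A-59 response at 6 h and 1 of 5 for #B-20 against #A-59 at 6 h, where GC correction, with or without the block, left no DEG (0). The other pathway genes numbered 25 with block and GC correction for #A-59 at 0 h (15), 21 with only the libraries compared at 6 h (32) and 13 with DESeq2 and with block and GC correction for #A-59 at 6 h against 0 h. For #B-20 at 6 h against 0 h (3) they numbered 7 with no filter, GC correction and block and GC correction, 6 with DESeq2 and only the libraries compared, and 5 with the replicate block. The causes were not tested.

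Leaving out 1 library gave these ranges of passing members: 0 to 1 for #A-59 and 1 to 2 for #B-20 against parental cells at 0 h, 2 to 6 for parental cells at 6 h against 0 h, 2 to 4 for #A-59 and parental cells and 1 to 4 for #B-20 at 18 h against 0 h, 1 to 1 for #B-20 at 6 h against 0 h, 2 to 6 for #B-20 against #A-59 at 6 h and 0 to 0 for the #B-20 response at 6 h. Members that were DEGs ranged from 1 to 2 for #A-59 against parental cells at 6 h and for 18 h against 6 h in #A-59 and parental cells, and from 0 to 1 for #B-20 against parental cells and against #A-59 at 6 h and for 18 h against 0 h in parental cells and #A-59. Other pathway genes ranged from 8 to 14 and 11 to 13 for #A-59 against parental cells at 0 and 18 h, 14 to 19 for #B-20 at 18 h, 9 to 16 for parental cells, 4 to 13 for #A-59 and 1 to 3 for #B-20 at 6 h against 0 h, and 25 to 33 for #A-59 and 22 to 29 for #B-20 at 18 h against 0 h. A lone library was assumed to vary like the other groups.

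The replicate numbers were not shown to pair the libraries: deviations of same-numbered libraries correlated between -0.026 and 0.32 over 36 pairs of groups (median 0.078), above 0 in 34 and above 0.1 in 14. The share of all genes that passed also moved with the setting: between 4.11% and 14.1% for parental cells at 6 h against 0 h (7.34%), between 0.00668% and 2.3% for the #A-59 response at 6 h (0.646%), and up to 0.894% for the #B-20 response at 6 h (0.183%). Each of the 9 genes had at least 1578 counts in every library, and each group had 2 libraries.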

Other observations

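For the 3 genes with the widest range of group means, the tested genes with the most similar course over the 9 group means of log2(CPM + 1) were listed, as a description without a test. For Lyn these were Scml4 (Pearson's r = 0.996), Ostf1 (0.992) and Hcfc2 (0.991). For Syk they were Pax5 (0.972), the B cell identity factor, Kcnn1 (0.968) and the kinase gene Map3k8 (0.967). For Blk they were Man1b1 (0.989), Nxpe1-ps (0.985) and Prdx5 (0.98). These are the 3 highest of 15317 correlations for each gene, over 9 points from the same libraries. Among the 9 genes themselves r ranged from -0.016 (Blnk with Prkcb) to 0.936 (Lyn with Btk).

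Of the Syk and Tec family, Bmx was the 1 kinase higher in both clones when untreated, at 3.61 ± 0.0978 CPM (SD, n = 2) in the parental line and 9.45 ± 3.11 and 22.8 ± 2.41 CPM in #A-59 and #B-20. Its log2 differences were 1.37 ± 0.26 (adjusted p = 0.000928) and 2.66 ± 0.26 (adjusted p = 4.18e-07). Zap70 was lower in #B-20 by 1.16 ± 0.12 (adjusted p = 8.13e-07). Fcgr2b, the inhibitory Fc receptor, rose at 18 h from 37.5 ± 0.0156 to 147 ± 15.9 CPM in parental cells, with a log2 change of 1.97 ± 0.09 (adjusted p = 1.49e-10), and by 2.00 ± 0.09 in #A-59 and 1.15 ± 0.09 in #B-20. Its level went from 40.7 ± 0.897 to 163 ± 4.81 CPM in #A-59 and from 64.0 ± 0.778 to 142 ± 11.8 CPM in #B-20. The smaller log2 change of #B-20 thus started from a higher untreated level and ended near the parental 18 h level.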
